A study of Mus musculus with 12 samples.

Results

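The 10 genes described here encode the subunits and the main feedback proteins of nuclear factor kappa B (NF-κB), namely Nfkb1, Rela, Rel, Relb, Nfkb2, Nfkbia, Nfkbie, Nfkbiz, Bcl3 and Tnfaip3. They were taken as a named list, 10 of the 21887 RefSeq protein-coding genes on the main chromosomes. No cut on their values was used, but earlier results of these data were known when the list was chosen. A peak was counted for a gene when it overlapped the gene or the 20 kb on both sides, or when the deposited table gave it that gene's symbol. The binding of FRA-1, an AP-1 transcription factor encoded by Fosl1, was measured by chromatin immunoprecipitation followed by sequencing (ChIP-seq) in adherent peritoneal macrophages of 8-week-old mice. Each condition (unstimulated, LPS, apoptotic cells) had 3 replicates, the stimuli acted for 1 h, and the labels name no altered allele. LPS (lipopolysaccharide) is a bacterial cell wall component, given at 1 µg/mL by the sample records and at 10 µg/mL by the design text, and apoptotic cells were given at a ratio of 1:5. The sample records describe thioglycollate-elicited cells of a 129/C57Bl6 background, and the design text lavage of C57Bl/6 mice with no elicitation named. The records name the same 3 mice in every condition, but the columns of the peak tables name no mouse. Replicates are therefore numbered by their order in each table and not paired.

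NF-κB is a family of dimers built from the RELA, REL and RELB proteins and from the p50 and p52 proteins, which are cut from the precursors made by Nfkb1 and Nfkb2. In resting macrophages the dimers are held in the cytoplasm by IκB proteins, and LPS triggers the destruction of these inhibitors through Toll-like receptor 4. The released dimers switch on inflammatory genes together with genes of their own inhibitors, so that the response limits itself. AP-1 factors such as FRA-1 bind many of the same enhancers as NF-κB.

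The tables give each replicate's peak a score, whose scale is not described in the sources used here. They give no counts of reads, the depth is unknown, and a gene without a peak had no binding detectable at the authors' threshold. Unstimulated replicates held 20981 to 28314 peaks, LPS replicates 39728 to 63010 and apoptotic cell replicates 31501 to 79474. Their smallest peak was 104 to 116 bp wide in 4 replicates (unstimulated 3, LPS 1 and 3, apoptotic cells 3) and 158 to 172 bp wide in the other 5, here called the narrow and the wide class. What sets these classes apart was not tested. As the columns name no mouse, p-values measure only the spread between columns, which may be technical. With 3 replicates against 3, no exact two-sided test can give a p below 0.1.

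A FRA-1 peak was listed in the promoter of 1 of these genes, Tnfaip3. No other had one among the 7 with a promoter sequence in RefSeq (Rela, Rel, Nfkb2, Nfkbia, Nfkbie, Bcl3 and Tnfaip3). Tnfaip3 encodes A20, an enzyme that removes ubiquitin chains and shuts off signalling to NF-κB. Apoptotic cell replicate 3 had this peak, from 133 to 243 bp upstream of the transcription start, at chr10:19015543-19015653 on GRCm38, with a score of 106.47. That score stood at the 49.6th percentile of this replicate, which had the most peaks in the whole series, 79474. No other replicate had a peak in this promoter. The sequence below (RefSeq, GRCm38.p6, minus strand, chr10:19015532-19015653) is shown because it is the only promoter sequence of these genes under a listed peak. The capitals mark an AP-1 site, of the form TGANTCA, which straddles the inner edge of the peak with 4 of its bases inside.
Tnfaip3: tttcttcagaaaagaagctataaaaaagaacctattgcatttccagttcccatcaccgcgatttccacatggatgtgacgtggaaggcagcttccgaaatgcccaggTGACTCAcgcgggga
Over the window from 250 bp before to 50 bp after the start, 1 of the 7 genes was overlapped by a peak of any apoptotic cell replicate, against 2.35% of the 17492 protein-coding genes with such a window. It was 0 of 7 after LPS, against 2.17%, and 0 of 7 without stimulation, against 0.966%. With 1 gene in 1 replicate, the conditions did not differ beyond the spread between replicates.

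Sites of the AP-1 form were also found in promoters without a peak. Reading TGANTCA on both strands, which is the same search as the form is its own reverse complement, 3 of the 7 genes held a match (Tnfaip3, Nfkbie and Nfkb2), against 8.12% of the 17492 genes. The related cyclic AMP response element TGACGTCA was found in 0 of 7, against 2.54%. A κB site, read as GGG and CC parted by 5 bases of any kind on both strands, was found in 7 of 7, against 59.8% of all genes, a form common to most promoters. The following stretches show, with the match in capitals, the AP-1 form of Nfkbie and Nfkb2 and examples of the κB form of Rel, Nfkbia and Nfkb2, picked after the matches were seen (RefSeq, GRCm38.p6, strand of the gene).
Nfkbie, AP-1 form, 156 bp upstream: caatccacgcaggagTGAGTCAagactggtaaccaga
Nfkb2, AP-1 form, 210 bp upstream of its second listed start: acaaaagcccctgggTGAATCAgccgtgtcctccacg
Rel, κB form, 92 bp upstream: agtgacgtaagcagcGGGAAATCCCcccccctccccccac
Nfkbia, κB form, 29 bp upstream: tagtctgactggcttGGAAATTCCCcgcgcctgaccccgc
Nfkb2, κB form, 39 bp upstream of its first listed start: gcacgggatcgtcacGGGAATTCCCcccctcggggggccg
A match is only a run of letters in the reference and was not tested for binding. In none of these 5 stretches did any of the 9 replicates have a FRA-1 peak. The nearest at Nfkb2 was a peak of apoptotic cell replicate 3 at chr19:46304261-46304435 with a score of 65.03, about 0.4 kb upstream of the first start.

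Over the whole windows, FRA-1 peaks lay near all 10 genes. The 9 replicates had 113 peaks near them, 20 without stimulation, 43 after LPS and 50 with apoptotic cells, the promoter peak of Tnfaip3 included. Of these, 46 lay inside 1 of the 10 genes, or 40.7%, where the 10 genes made up 38.8% of the length searched. The windows also reach into other genes, such as Manba at Nfkb1 and Cblc at Bcl3, and peaks inside those were counted too. Merged across replicates they formed 96 regions, of which 89 were listed in 1 replicate only. That is 92.7%, against 89.7% of the 300608 regions of the whole series. Only 7 regions were listed in at least 2 replicates, and none in all 9 as 1372 regions of the series were, so that scores could not be compared across all replicates at any region near these genes. The authors' table gave 14 of the 113 peaks the symbol of one of these genes. The peaks ranked from the 0.411th to the 99.0th percentile of the scores of their own replicate, with a median at the 46.3rd.

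**Figure D1:**
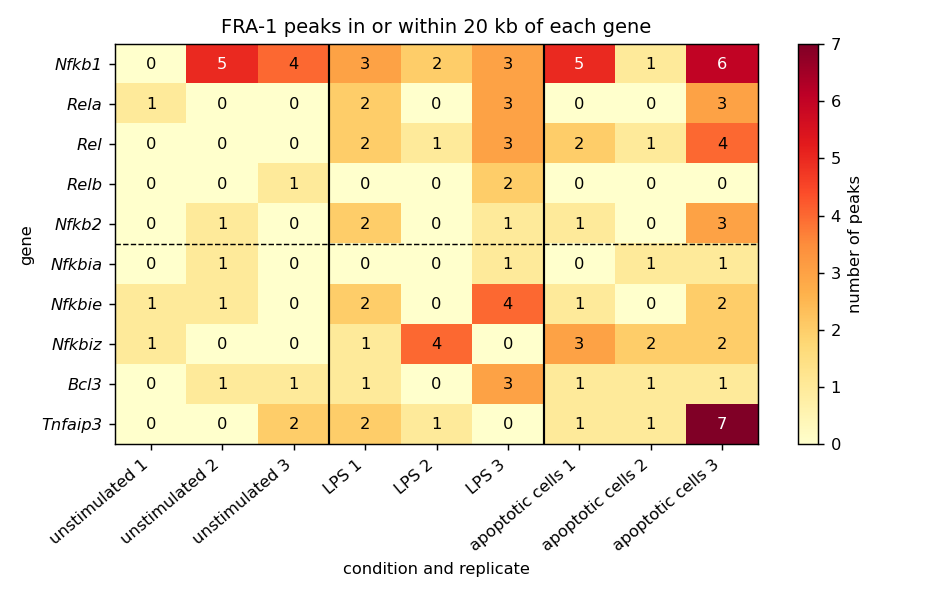
Number of FRA-1 peaks in or within 20 kb of each gene (rows) in each of the 9 replicates (columns), with subunit genes above the dashed line and inhibitor genes below it. Rel is at 0 in the 3 unstimulated replicates and at 1 or more in the other 6, and Tnfaip3 reaches 7 in apoptotic cell replicate 3.

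Among the subunit genes, Rel set the stimulated replicates apart from the unstimulated ones. Rel encodes c-Rel, a transactivating subunit of lymphoid and myeloid cells, and lies on chromosome 11 from 23736847 to 23770969 on the minus strand. It had 0, 0 and 0 peaks in the unstimulated replicates, 2, 1 and 3 after LPS, and 2, 1 and 4 with apoptotic cells. Every stimulated replicate thus lay above every unstimulated one. The mean was 2.00 ± 1.00 after LPS and 2.33 ± 1.53 with apoptotic cells (SD, n = 3), against 0 in unstimulated macrophages (p = 0.1 for either by a two-sided exact permutation test). Adjusted over all 21887 genes by the Benjamini-Hochberg method, the exact permutation p was 0.98 for LPS and 1 for apoptotic cells, so that neither difference passed. In the narrow class, Rel had 0 peaks in unstimulated replicate 3 against 2, 3 and 4 in the stimulated replicates. In the wide class it had 0 and 0 against 1, 2 and 1. A split by class could not undo an order that was complete over all replicates. Of all genes, 9.87% had more peaks in every LPS than in every unstimulated replicate, and 6.57% had more in every apoptotic cell replicate. An unstimulated 0 with a peak in all 6 stimulated replicates was found in 200 genes, or 0.914%. This last form follows the counts of Rel itself and was not planned.

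The LPS peaks of Rel lay in the gene itself. LPS replicates 1 and 3 and apoptotic cell replicate 2 shared a region at chr11:23744029-23744195, about 26.9 kb downstream of the transcription start, with scores of 237.09, 433.05 and 258.91. These scores ranked at the 86.1st, 96.5th and 93.2nd percentile of their replicates, and 433.05 was the highest score near any of the 10 genes. Within the next 1 kb, LPS replicate 1 had a further peak with a score of 178.46 and LPS replicate 3 one with 245.97. LPS replicate 3 had yet another, 23.3 kb from the start, with 220.34. LPS replicate 2 had its peak elsewhere in the gene, about 17.9 kb from the start, with a score of 148.43. The peaks of apoptotic cell replicate 1 lay beyond the 3′ end of Rel, 8821 and 8214 bp away, inside the neighbouring gene Pus10. They were the only peaks of this replicate in the window and cannot be tied to Rel. Those of apoptotic cell replicate 3 lay from 0.6 kb downstream to 17.9 kb upstream of the start. By presence of the shared region, LPS (2 of 3) and unstimulated (0 of 3) did not differ beyond the spread (two-sided Fisher's exact test, p = 0.4). With apoptotic cells, windows of 0, 5 or 50 kb or a score of at least 100 ended the separation from the unstimulated replicates. The separation after LPS held under each. At 0 kb, peaks outside the gene that were given its symbol still counted.

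**Figure D2:**
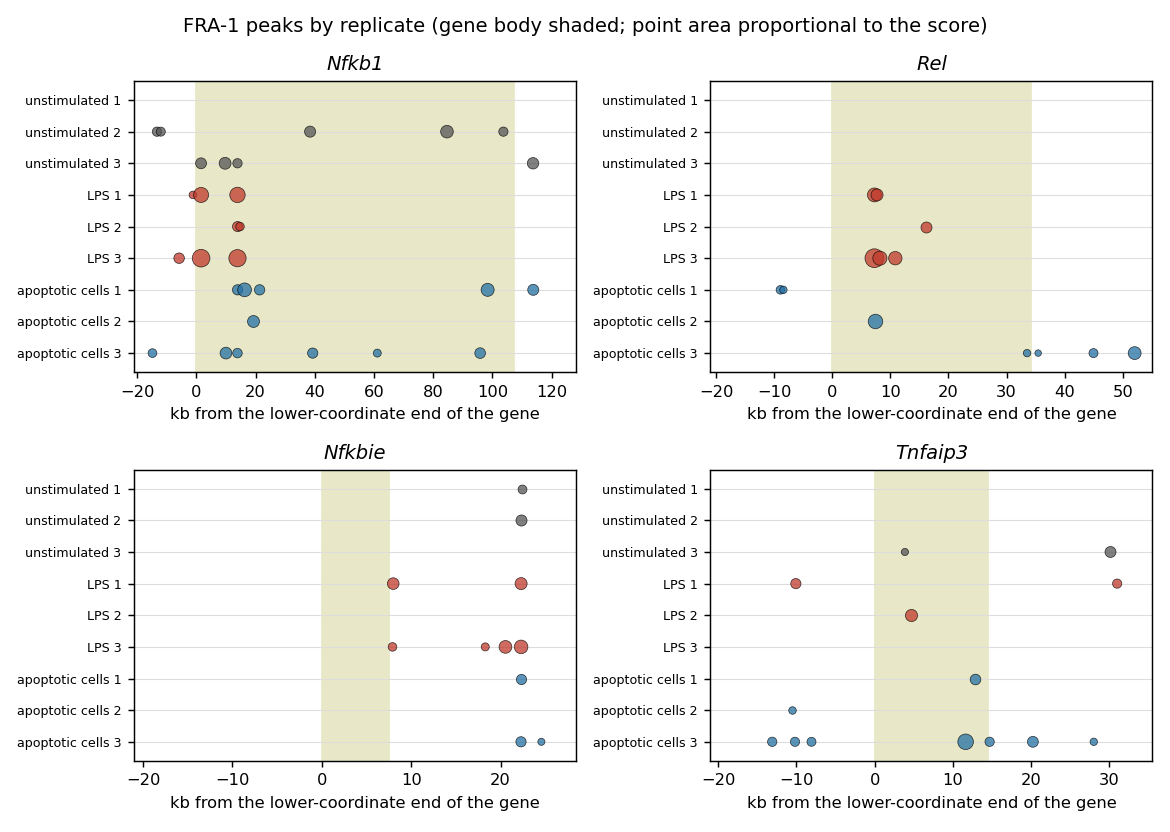
Position of FRA-1 peaks at Nfkb1, Rel, Nfkbie and Tnfaip3, in kb from the lower-coordinate end of the gene, with 1 line per replicate, the gene shaded and the area of a point proportional to the peak score. At Nfkb1 a column of points stands at 13.9 kb in 6 replicates, and at Rel the LPS points gather inside the gene, where the unstimulated lines are empty.

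Nfkb1 held the region that returned most often inside any of these genes. It encodes the p105 precursor of p50 and lies on chromosome 3 from 135584655 to 135691969, with a length of 107.3 kb the longest of the 10. Its peaks numbered 0, 5 and 4 without stimulation, 3, 2 and 3 after LPS, and 5, 1 and 6 with apoptotic cells, and the conditions overlapped. The region at chr3:135598488-135598662 lay 13.9 kb inside the lower-coordinate end of the gene. It was listed in all 3 LPS replicates, with scores of 290.79, 126.89 and 365.26, in apoptotic cell replicates 1 and 3, with 129.52 and 111.27, and in unstimulated replicate 3, with 107.3. All these scores after LPS were above that of the unstimulated replicate, and LPS replicate 2 was close to the apoptotic cell replicates. In percentiles, LPS replicates 1 and 3 stood at the 92.1st and 91.6th, LPS replicate 2 at the 52.4th and unstimulated replicate 3 at the 26.7th. The 6 peaks had 104 bp in common. By presence, 3 of 3 LPS against 1 of 3 unstimulated replicates did not differ beyond the spread between replicates (p = 0.4, two-sided Fisher's exact test).

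A second region of Nfkb1, at chr3:135586186-135586310, lay 1.6 kb inside the same end. LPS replicates 1 and 3 had scores of 277.38 and 382.64 there and unstimulated replicate 3 had 145.56. These 3 replicates are all of the narrow class. LPS replicate 2, of the wide class, had none, and neither had any apoptotic cell replicate, so that 3 of the 4 narrow and 0 of the 5 wide replicates listed it. Another, at chr3:135698226-135698556, lay 6257 bp beyond the higher-coordinate end and was listed in unstimulated replicate 3 with 161.14 and in apoptotic cell replicate 1 with 149.46. Whether these positions are exonic or intronic was not analysed here.

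The other subunit genes had few peaks, none of them in the same place in a pair of replicates. Rela encodes p65, the main transactivating subunit, and lies on chromosome 19 from 5637442 to 5648134. Its peaks numbered 1, 0 and 0 without stimulation, 2, 0 and 3 after LPS, and 0, 0 and 3 with apoptotic cells. LPS replicate 3 had a peak about 1.6 kb upstream of the start with a score of 90.5, and LPS replicate 1 a peak inside the gene with 130.83. Another peak of LPS replicate 3 lay inside the neighbouring gene Sipa1. The zero in LPS replicate 2 kept the conditions overlapping. Nfkb2, the gene of the p100 precursor of p52, lies on chromosome 19 from 46300994 to 46312400. It had 0, 1 and 0 peaks without stimulation, 2, 0 and 1 after LPS, and 1, 0 and 3 with apoptotic cells, again with overlap. The unstimulated peak and 2 of the 3 peaks of apoptotic cell replicate 3 lay inside the neighbouring gene Psd. Relb encodes the partner of p52 in the slower, noncanonical pathway and lies on chromosome 7 from 19606217 to 19629438. It had the fewest peaks of the 10 genes, 3 in all, 1 in unstimulated replicate 3 and 2 in LPS replicate 3, and 0 in the 3 apoptotic cell replicates. Only 1 of these, of LPS replicate 3 with a score of 153.54, lay inside Relb. The unstimulated peak lay inside Clasrp and the other LPS peak inside Clptm1.

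Nfkbia and Nfkbie encode the inhibitors IκBα and IκBε, which NF-κB itself induces. Nfkbia lies on chromosome 12 from 55489409 to 55492647 and had 0, 1 and 0 peaks without stimulation, 0, 0 and 1 after LPS, and 0, 1 and 1 with apoptotic cells. The LPS peak lay inside the gene with a score of 185.22. Unstimulated replicate 2 had a peak about 2.8 kb upstream of the start with 128.83, and apoptotic cell replicate 3 one about 2.3 kb upstream with 89.11. With the remaining peak, 9380 bp beyond the 3′ end, these 4 peaks lay in 4 different places, and the conditions overlapped.

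Nfkbie lies on chromosome 17 from 45555700 to 45563169 and held no peak inside the gene in any of the 9 replicates. Its window had 1, 1 and 0 peaks without stimulation, 2, 0 and 4 after LPS, and 1, 0 and 2 with apoptotic cells. All lay beyond the 3′ end, where Slc35b2 and Hsp90ab1 follow, so that they cannot be tied to Nfkbie. One region at chr17:45577928-45578306, 14759 bp beyond Nfkbie and 4667 bp from Hsp90ab1, was listed in 2 replicates of every condition. Its scores were 97.19 and 150.95 in unstimulated replicates 1 and 2, 178.77 and 226.93 in LPS replicates 1 and 3, and 129.52 and 128.9 in apoptotic cell replicates 1 and 3. Both LPS scores were the highest of the 6, while by presence the conditions were the same. Ranked within their own replicates, LPS replicate 1 stood at the 74.5th percentile and LPS replicate 3 at the 66.1st. Apoptotic cell replicates 1 and 3 stood at the 56.1st and 69.0th, and unstimulated replicates 1 and 2 at the 21.1st and 62.6th. By rank, LPS replicate 3 was thus below apoptotic cell replicate 3. Close to the gene, 312 bp beyond its end at chr17:45563481-45563749, LPS replicates 1 and 3 shared a region with scores of 167.2 and 91.29 that no other replicate had. These scores stood at the 68.0th and 10.3rd percentile, and both replicates are of the narrow class. By presence, 2 of 3 LPS against 0 of 3 unstimulated replicates did not differ beyond the spread (p = 0.4, two-sided Fisher's exact test). This region reached the promoter of Slc35b2, a transporter gene. The 62 bp common to both peaks and the RefSeq promoter sequence of Slc35b2 (chr17:45563686-45563747, GRCm38.p6, plus strand) are shown because this region was listed after LPS alone, and no AP-1 form was found in the part of the region that this promoter sequence covers.
Slc35b2: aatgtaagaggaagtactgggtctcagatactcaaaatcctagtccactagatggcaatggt

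**Figure D3:**
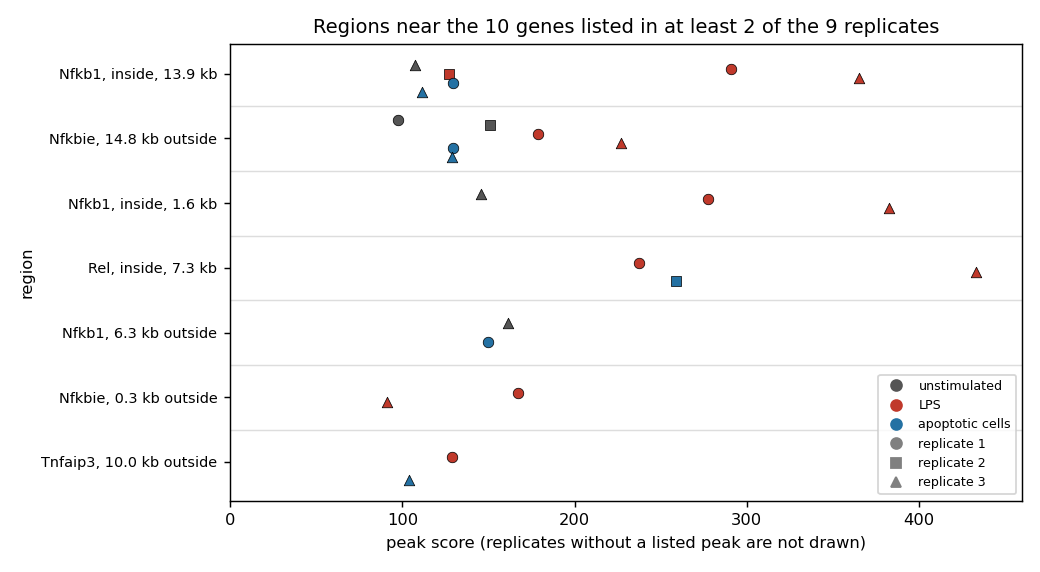
Peak scores of the 7 regions near these genes that were listed in at least 2 of the 9 replicates, coloured by condition and with a marker for each replicate. LPS replicates 1 and 3 give the highest scores at both inner regions of Nfkb1 and at the outer region of Nfkbie, and no unstimulated point stands at Rel. No normalization of scores between replicates is stated.

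Nfkbiz and Bcl3 encode atypical IκB proteins of the nucleus, which join p50 or p52 on DNA and can turn genes on. Nfkbiz, which LPS is known to induce early, lies on chromosome 16 from 55811375 to 55838954. It had 1, 0 and 0 peaks without stimulation, 1, 4 and 0 after LPS, and 3, 2 and 2 with apoptotic cells. The apoptotic cell replicates were above all unstimulated ones, at 2.33 ± 0.577 against 0.333 ± 0.577 (SD, n = 3, p = 0.1 by a two-sided exact permutation test and 1 when adjusted over all genes). The LPS replicates overlapped with both. Yet none of the 13 peaks of Nfkbiz fell in the same place in any pair of replicates, and the strongest, of apoptotic cell replicate 2, scored 308.35, the 97.3rd percentile. In apoptotic cell replicates 1 and 3, a peak each lay inside the neighbouring gene Nxpe3, 11253 and 17832 bp beyond Nfkbiz. These cannot be tied to Nfkbiz, and without its own, replicate 3 was level with unstimulated replicate 1, which had 1 peak. The separation of Nfkbiz was lost with a window of 5 kb, a window of 50 kb, a score of at least 100 or division by the peaks of each replicate. Bcl3 lies on chromosome 7 from 19808462 to 19822824 and had 0, 1 and 1 peaks without stimulation, 1, 0 and 3 after LPS, and 1 in each apoptotic cell replicate. No peak lay inside Bcl3, and the closest upstream were those of apoptotic cell replicate 2, about 3.7 kb from the start with 154.25, and LPS replicate 3, about 5.0 kb from it with 66.23.

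Tnfaip3 lies on chromosome 10 from 19000910 to 19015410. Its peaks numbered 0, 0 and 2 without stimulation, 2, 1 and 0 after LPS, and 1, 1 and 7 with apoptotic cells. The 7 peaks of apoptotic cell replicate 3 were the most of any of the 10 genes in any replicate, and this replicate also had the most peaks in the whole series, 79474. The strongest lay inside the gene at chr10:19012408-19012648, about 0.6 kb upstream of the second RefSeq start of Tnfaip3, and scored 297.89, the 99.0th percentile of that replicate. Apoptotic cell replicate 1 had a peak 1.7 kb downstream of the first start with 139.46. The only region common to a pair of replicates lay 9990 bp beyond the 3′ end, in LPS replicate 1 with 128.52 and apoptotic cell replicate 3 with 103.62. The conditions overlapped, and without unstimulated replicate 3 the apoptotic cell replicates were all above the remaining unstimulated ones, as they then were at 12.3% of all genes.

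More peaks in every LPS than in every unstimulated replicate were counted at 1 of the 10 genes (Rel), and 9.87% of all 21887 genes showed this. Without LPS replicate 2 the count was 3 of 10 (Rela, Rel and Nfkbie), and the share of all genes 25.8%. For apoptotic cells against unstimulated macrophages it was 2 of 10 (Rel and Nfkbiz), against 6.57%. The 2 comparisons share their unstimulated replicates. The reverse was counted at 0 of 10 genes in either comparison, against 0.192% and 0.164%. LPS and apoptotic cells did not separate at any of the 10 genes, against 1.99% of all genes with more peaks in every LPS replicate and 1.28% with more in every apoptotic cell replicate. Over all genes, the lowest adjusted p of these exact permutation tests was 0.98, and 2202, 1473 and 716 genes had p = 0.1 for LPS and for apoptotic cells against unstimulated macrophages and for LPS against apoptotic cells.

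After LPS, 3 of 10 genes (Nfkb1, Rel and Nfkbie) had a region listed in 2 or more replicates, against 48.7% of all genes, and 1 of 10 without LPS replicate 1 (16.5% of all genes) or without LPS replicate 3 (15.1%). With apoptotic cells it was 2 of 10 (Nfkb1 and Nfkbie), against 24.4%, and 0 without replicate 1 (16.9%) or 3 (17.5%). In unstimulated macrophages it was 1 of 10 (Nfkbie), against 13.6%, and 0 without replicate 1 (9.81%) or 2 (9.62%). A region in all 3 LPS replicates was found at 1 of 10 (Nfkb1), against 14.7%. A region of 2 or more LPS replicates that every unstimulated replicate lacked was found at 2 of 10 (Rel and Nfkbie), against 34.1%. The windows of these genes had a median length of 54.4 kb and those of all genes 57.2 kb. No test of the list against other genes was made, and with 10 genes a few decide each count.

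The windows of the 10 genes held 10.2 ± 4.92 peaks per Mb without stimulation, 21.9 ± 9.22 after LPS and 25.5 ± 17.2 with apoptotic cells (SD, n = 3). The windows of all protein-coding genes held 10.1 ± 1.65, 21.3 ± 6.75 and 20.7 ± 10.9 peaks per Mb. In single replicates the ratio of both ran from 0.447 in unstimulated replicate 1 to 1.66 in unstimulated replicate 2, with a median of 1.06 over the 9 replicates. Without stimulation the replicate with the fewest peaks in all, replicate 2 with 20981, had the most near the 10 genes, 9, against 3 and 8 in replicates 1 and 3.

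**Figure D4:**
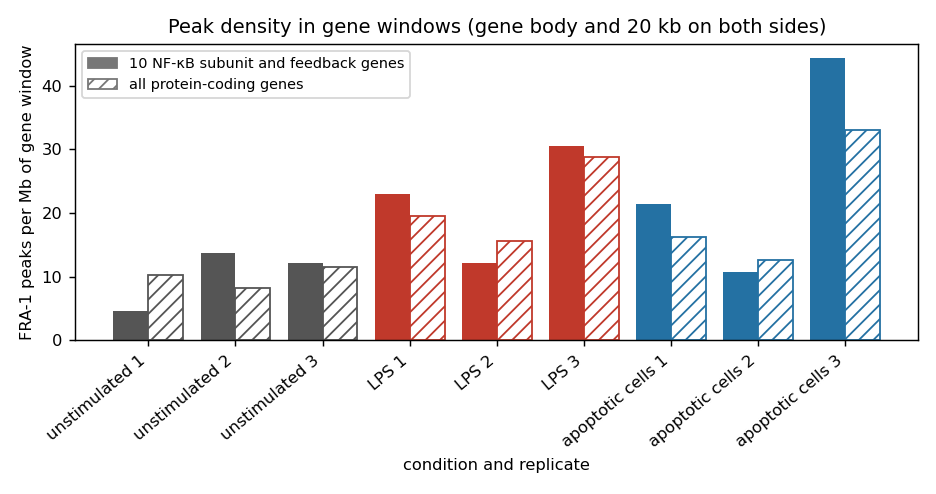
FRA-1 peaks per Mb of gene window (gene and 20 kb on both sides) in each replicate, for the 10 NF-κB genes (filled bars) and for all protein-coding genes (hatched bars). Both are highest in apoptotic cell replicate 3, at 44.3 and 33.0, while in unstimulated replicate 1 the 10 genes stand at 4.59 and all genes at 10.3 and in unstimulated replicate 2 at 13.8 and 8.30.

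Among 33 other genes of the pathway (kinases, adaptors, ubiquitin enzymes, further IκB proteins and receptors), all had a peak in some replicate. Their median was 13 peaks over the 9 replicates, against 10 for the 10 genes above and 9 for all genes. More peaks in every LPS than in every unstimulated replicate were counted at 2 of 33 (Tab1 and Birc3), against 9.87% of all genes, and the same for apoptotic cells at 2 of 33 (Cyld and Irak3), against 6.57%. Apoptotic cell replicates were all above the LPS replicates at 2 of 33 (Ripk1 and Cyld), against 1.28%. Regions in at least 2 LPS replicates were found at 17 of 33, against 48.7% of all genes. It was 6 of 33 for apoptotic cells, against 24.4%, and 3 of 33 for unstimulated macrophages, against 13.6%. A promoter was overlapped by a peak of an apoptotic cell replicate at 2 of the 29 genes with a promoter sequence (Ikbke and Tab2), against 2.35%, and at 0 of 29 in the other conditions, against 2.17% after LPS and 0.966% without stimulation. The region that returned most often lay 1813 bp outside Tnfrsf1b, the gene of the second TNF receptor, in 9 of 9 replicates with scores from 126.89 to 534.98. Traf2, an adaptor of the TNF receptors, followed with a region 4928 bp outside the gene in 8 replicates (scores 91.06 to 444.14). Tab1, a partner of the kinase TAK1, had one in 6 replicates, Traf3 in 5, and Traf6 and Otulin in 4 each. Traf6 links Toll-like receptors to TAK1, and its region lay inside the gene. None of these regions separated LPS from unstimulated replicates in all 6.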

How the data were processed

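The values analysed were FRA-1 ChIP-seq peaks of 9 samples. Inputs were not analysed. Per the labels, reads were processed with BWA 0.7.14 and bedtools on mm10 (GRCm38). The peak caller is not given in the sources used here, and the re-analysis with other tools described in the paper was not repeated. The authors deposited 1 table per condition. The deposited score of each replicate's peak was made by the authors, with −1 where no peak was listed, and no normalization between replicates is stated. Each genomic segment also has the number of replicates with a peak, the sum of the scores and an assigned gene. The lowest score was 50.01.

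Repeated rows were dropped, and a replicate's peaks were rebuilt by joining neighbouring segments of equal score. Starts were read as counted from 0 and are printed as counted from 1. Peaks that overlapped or touched were merged into regions, within a condition for counts per condition and over all 9 replicates for single regions. Gene ends came from RefSeq (GRCm38.p6), and promoters and strands from its promoter table, in which 7 of the 10 genes were found. Nfkb1, Relb and Nfkbiz were not. Numbers of peaks were compared per gene with an exact permutation test over 3 against 3 replicates, adjusted over all genes, and regions by Fisher's exact test. The planned test of scores in regions listed in all 9 replicates found no such region near these genes. Members and lists were chosen with earlier results of these data known. All 10 genes were described, of the other pathway genes the 6 with the region in the most replicates and those in named counts of 2 (chosen after their values were seen), and of regions those listed in at least 2 replicates, of which the pairs across conditions were added after the values were seen. Results of alternatives (other windows, scores, symbol alone, left-out replicates) are given at the end. Peak joining and the permutation test were tested on simulated data, and window counts against a direct search of the real peaks. The work was done in Python 3.11.15 with scipy 1.17.1, pandas 2.3.3 and numpy 2.4.6, and drawn with matplotlib 3.10.9.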

Additional observations from a re-analysis of the deposited data

How the results depend on the processing

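Rel had more peaks in every LPS than in every unstimulated replicate with windows of 0, 5 and 50 kb. It was the only 1 of the 10 genes, against 5.31%, 6.38% and 15.5% of all genes. Peaks given a gene's symbol still counted in each window. The same was found with a score of at least 100 (6.92%), above the median score of each replicate (3.46%) and by peak centres (9.81%). For Rel, division by each replicate's total or leaving out 1 replicate could not undo an order that was already complete. With the deposited symbol alone the count of such genes was 0 (0.411%). The same count for apoptotic cells was 0 with windows of 0, 5 and 50 kb, against 3.32%, 3.87% and 10% of all genes. It was also 0 with a score of at least 100 (3.94%), a score above the median (2.05%) and the symbol alone (0.119%). After division by the total it was 1 (4.31%). Within the narrow class of peak width, chosen after seeing the data, the counts were 4 of 10 for LPS, against 38.5% of all genes, and 8 of 10 for apoptotic cells, against 68%. That class has 1 unstimulated replicate with 28314 peaks and 1 apoptotic cell replicate with 79474. Within the wide class they were 3 of 10 for the single LPS replicate (33.5%) and 3 of 10 for apoptotic cells (14.4%), and Nfkbiz (1 gene, 23.8%) had more peaks in that LPS replicate than in both apoptotic cell replicates.

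Genes with a region in at least 2 unstimulated replicates numbered 0 with windows of 0 and 5 kb, against 7.39% and 8.62% of all genes. They also numbered 0 with a score of at least 100 (12.1%), above the median (9.58%) and by symbol (1.12%), and 3 with 50 kb (22.2%). After LPS they numbered 6 with 50 kb (68.6%) and 0 by symbol (6.06%). With apoptotic cells they numbered 1 with 0 and 5 kb (13.2% and 15.5%) and 4 with 50 kb (38.3%). They numbered 0 there above the median (15.5%) and by symbol (2.31%). Overlap by 50% of the shorter peak changed none of them. Regions near the genes numbered 9, 9, 51, 6 and 2 without stimulation with windows of 0, 5 and 50 kb, above the median and by symbol. After LPS they numbered 17, 22, 72, 15 and 4, and with apoptotic cells 22, 25, 93, 21 and 8, and 28 with a score of at least 100. Each setting admits fewer or more peaks by construction. Other causes were not tested.

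With each replicate left out in turn, the genes above the unstimulated replicates numbered 1 to 3 for LPS, highest without LPS replicate 2 (25.8% of all genes). For apoptotic cells they numbered 2 to 3, highest without unstimulated replicate 3 (12.3%). Genes with a region in at least 2 replicates numbered 0 to 1 without stimulation, 1 to 3 after LPS and 0 to 2 with apoptotic cells. Regions numbered 11 to 17, 22 to 30 and 21 to 41, lowest without LPS replicate 3 and without apoptotic cell replicate 3. No paired analysis was possible because no mouse is named for any column of scores. The unknown depth limits what a gene without a peak can show.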

Other observations

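Beyond the 20 kb searched above, several of these genes had FRA-1 regions in more replicates than any of their own regions within 20 kb. With the window widened to 50 kb, 6 of 10 genes had a region in at least 2 LPS replicates, against 68.6% of all genes. For apoptotic cells it was 4 of 10, against 38.3%, and without stimulation 3 of 10, against 22.2%. From 20 to 50 kb away, 11 regions were listed in at least 2 replicates of a condition. The highest number was reached 38591 bp from the higher-coordinate end of Relb, at chr7:19668029-19668255, with a peak in all 9 replicates. Its scores were 227.17, 218.51 and 578.62 without stimulation, 483.35, 145.13 and 619.71 after LPS, and 231.39, 173.66 and 248.26 with apoptotic cells, so that the conditions overlapped. On the other side of Relb, within Gemin7, regions at chr7:19566473-19566648 and chr7:19567868-19568035 were each listed in 3 of 3 LPS, 2 of 3 apoptotic cell and 1 of 3 unstimulated replicates. A region within Clptm1, 24316 bp from Relb, was listed in 3 of 3 LPS replicates with scores of 136.64, 126.89 and 265.27, in apoptotic cell replicate 3 with 146.98 and in no unstimulated replicate. Upstream of Nfkbia, 23568 bp from the gene at chr12:55516215-55516374, LPS replicates 1 and 3 had scores of 178.77 and 245.97 and apoptotic cell replicate 2 had 175.18, and no unstimulated replicate was listed. These regions lie closer to other genes or between genes, and the tables tie none of them to an NF-κB gene.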
